A study of Homo sapiens with 6 samples.

Results

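Hyaluronan is a long, unsulfated sugar chain of the cell coat and matrix. HAS1, HAS2 and HAS3 are the plasma membrane synthases that build it from UDP-glucuronic acid and UDP-N-acetylglucosamine, hyaluronidases cut it, and CD44 is the main cell-surface receptor that binds it. HYAL2 and the sperm hyaluronidase SPAM1 (PH-20) carry a glycosylphosphatidylinositol (GPI) membrane anchor, as does u-PAR, the urokinase plasminogen activator receptor. CD44 is a heavily glycosylated transmembrane protein, and its N-glycans are known to influence how it binds hyaluronan.

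The genes described are HAS1 to HAS3, HYAL1 to HYAL4, SPAM1 and CD44, chosen by name. Every probe set whose RefSeq accession matched one of these 9 genes was kept, which gave 9 of the 1259 probe sets of the array and 8 of the 9 genes. HAS3 had 2 probe sets, and no probe set matched SPAM1, which was not analysed here. RKO C2 F3 (F3 below) is a population of the human colon carcinoma cell line RKO, derived from RKO C2 by sorting cells with little u-PAR; the sample labels call it clonal, and the series design calls it a population. RKO C2 (C2 below) is the clonal RKO population it came from. Both had 3 arrays, with the replicate numbers 1 to 3, and no treatment is given for either. The study asked which glycosylation enzyme is deficient in cells where u-PAR matures incompletely. F3 is 1 sorted derivative of 1 clone, and nothing in the labels says that its arrays stem from separate cultures. The p-values therefore measure the spread of these samples alone, which may be technical.

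The values are log2 expression, as deposited, and ran from 2.08 to 14.1 over the table. The array medians lay between 5.48 and 5.51, the correlation of 2 arrays over probe sets was between r = 0.9981 and r = 0.9992, and precision is limited by having 3 arrays per population. Of 14 epithelial and colon markers 4 were measured, with an array mean log2 of 5.21 to 5.38 in F3 and 5.23 to 5.29 in C2. MUC1, a mucin of epithelial cells, averaged 7.11 in F3 and 7.10 in C2. Its other probe sets averaged 7.04 and 6.88 in F3, against 7.11 and 6.85 in C2. The rest of this list was dimmer, with F3 and C2 means of 5.15 and 5.12 (MUC2), 4.23 and 4.13 (MUC13), and 4.68 and 4.74 (LGALS4). Keratins and EPCAM, which define epithelial cells, were not among the named genes. The 6 leukocyte markers measured had array means of 4.53 to 4.62 in F3 and 4.48 to 4.52 in C2. The 7 fibroblast and endothelial markers had array means of 3.47 to 3.53 in F3 and 3.54 to 3.59 in C2. The F3 array means thus lay slightly above the C2 array means for leukocyte markers and slightly below them for fibroblast and endothelial markers. Of the leukocyte markers 5 had a positive change, the largest being CD72 at 0.23 and SIGLEC5 at 0.17, and 1 a negative (CD33 at -0.063). Of the fibroblast and endothelial markers 1 was positive and 6 were negative, with ICAM2 lowest at -0.20. The part of these marker differences in the results was not tested.

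None of the 9 member probe sets differed between F3 and C2 in limma at a Benjamini-Hochberg adjusted p under 0.05, where 0.0794% of all 1259 probe sets did (1 probe set, of PIGB, which encodes a mannosyltransferase of GPI anchor synthesis). At an unadjusted limma p under 0.05 the count was 1 of the 9 (HAS2), against 5.40% of all probe sets. The 9 log2 changes ran from -0.060 to 0.64 with a median of 0.076, beside a median of -0.0064 over all probe sets. Of the 9, 7 were positive, or 77.8%, against 45.4% of all probe sets. The count of positive changes was between 6 and 8 of 9 with 1 array left out in turn. The plot of the members by array shows all 54 values.

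**Figure D1:**
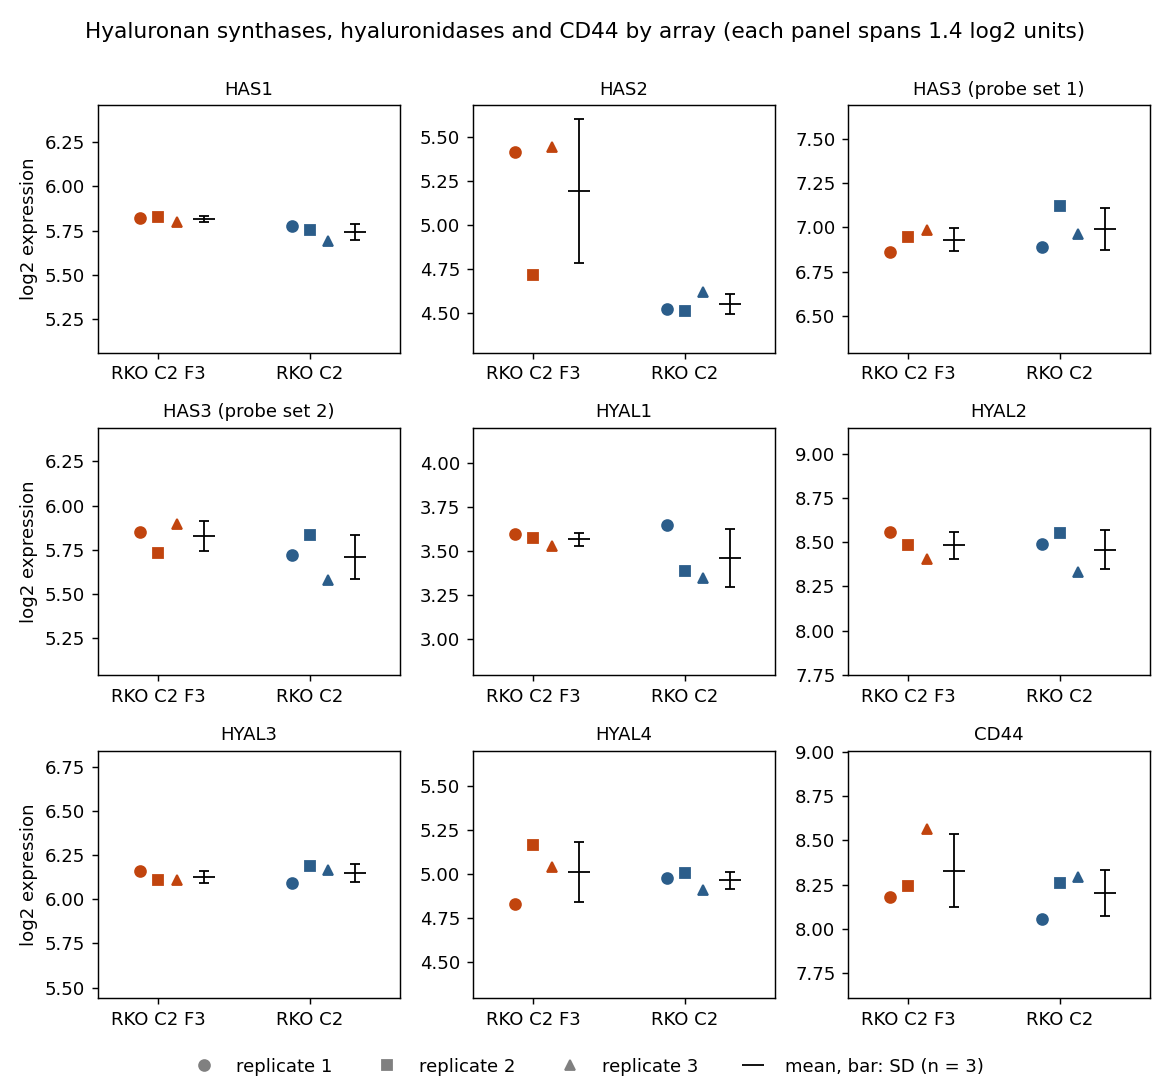
Log2 expression of each member probe set (vertical axis, each panel spanning 1.4 log2 units) on the 3 F3 arrays (left, red) and the 3 C2 arrays (right, blue). The marker shape gives the replicate number, and the black line and bar give the mean and SD (n = 3). HAS2 is the panel where the F3 arrays lie far apart, with replicates 1 and 3 at 5.41 and 5.44 and replicate 2 at 4.72.

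Among the synthases, HAS2 had the largest positive change of all 1259 probe sets, and it did not pass the adjusted threshold. HAS2 encodes the synthase that is essential in the mouse embryo and is known for long hyaluronan chains. Its log2 expression was 5.41, 4.72 and 5.44 on F3 arrays 1, 2 and 3, against 4.52, 4.51 and 4.62 on the C2 arrays. All 3 F3 arrays lay above all 3 C2 arrays, but F3 replicate 2 was only 0.10 above the highest C2 array and 0.69 below the next F3 array. The means were 5.19 ± 0.41 in F3 and 4.55 ± 0.06 in C2 (SD, n = 3 each). The log2 change was 0.64 (SE 0.17, 95% interval 0.25 to 1.03), or 1.56-fold, with a limma adjusted p of 0.73 and an unadjusted p of 0.0055. The limma fit draws each variance towards that of all probe sets, so this interval is narrower than the SDs of HAS2 alone would give. In the ordinary two-sample test, which uses the SDs of HAS2 alone, the unadjusted p was not under 0.05. The HAS2 value of every array lay under the lowest array median, 5.48. Without a detection call, whether HAS2 was expressed in C2 cannot be told. In these bulk RNA samples, more cells with HAS2 RNA and more HAS2 RNA per cell cannot be told apart.

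The size of the HAS2 difference depended on replicate 2. The differences between same-numbered arrays, F3 minus C2, were 0.89, 0.21 and 0.83 for numbers 1, 2 and 3. Without F3 replicate 2 the change was 0.88 (95% interval 0.73 to 1.02) with a limma adjusted p of 0.0038, and HAS2 was then 1 of 2 probe sets past the threshold (0.159% of all). Without both arrays of number 2 it was 0.86 with an adjusted p of 0.014, and HAS2 was the only probe set past the threshold (0.0794%). Number 2 was the only pair left out. Leaving out F3 replicate 2, the lowest F3 array, lowers the F3 SD by construction, so these adjusted p-values add no support. Without any other single array the change was between 0.51 and 0.67, and the adjusted p between 0.70 and 0.89. With the replicate block the SE was 0.13 and the adjusted p 0.40. With limma array weights the change was 0.54 and the adjusted p 0.77. An exact two-sided permutation test of HAS2 over the 20 splits of the 6 arrays gave p = 0.10, the smallest that 3 against 3 arrays allow. Those splits do not keep the pairs, and an exact two-sided test by sign flips within the 3 pairs gave p = 0.25, also the smallest possible.

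**Figure D2:**
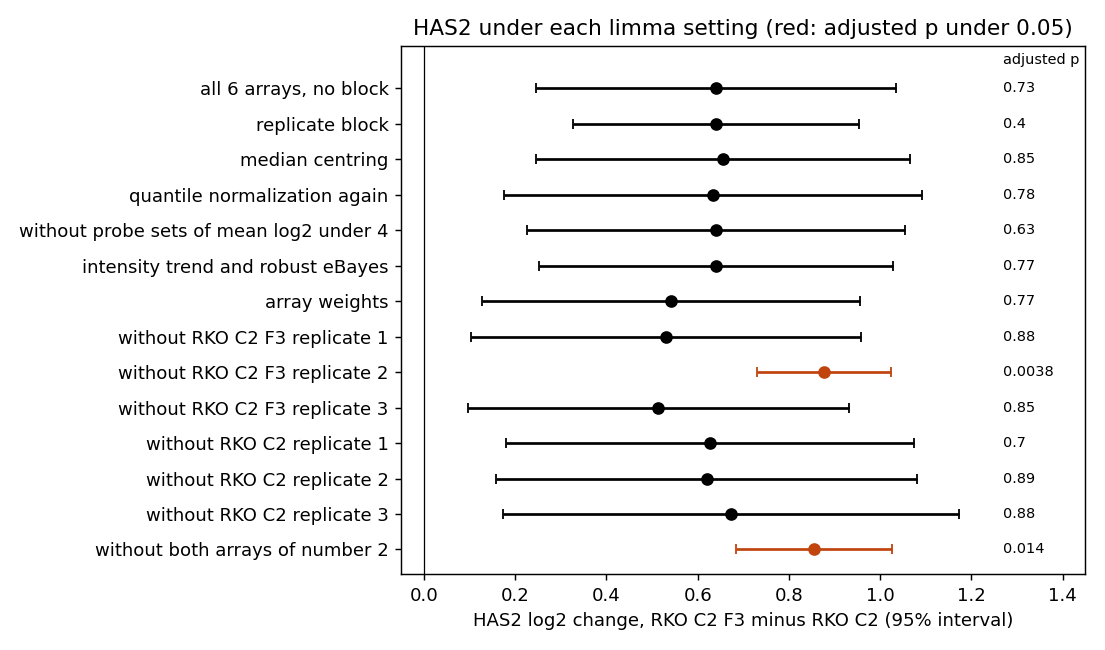
HAS2 log2 change, F3 minus C2 (horizontal axis), with its 95% interval under 14 limma settings (rows), and the adjusted p of each at the right. The change is positive in all 14; it passes the threshold (red) without F3 replicate 2 (0.88) and without both arrays of number 2 (0.86).

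HAS2 varied more between the F3 arrays than between the C2 arrays, a difference in spread that was not tested. Its SD over the F3 arrays was 7.02 times that over the C2 arrays, and it was the third largest F3 SD of the 1259 probe sets, while its C2 SD ranked 772. Over all probe sets the median absolute deviation of F3 replicate 2 from the F3 mean was 0.042, against 0.053 and 0.051 for F3 replicates 1 and 3, and 0.048, 0.050 and 0.047 for the C2 arrays. F3 replicate 2 was the highest F3 array for each marker list, with means of 5.38 (epithelial and colon), 4.62 (leukocyte) and 3.53 (fibroblast and endothelial). It also had the largest limma array weight, 1.47, against 0.755 to 1.19 for the other arrays. Their part in the HAS2 value of that array was not tested. Both probe sets with a larger F3 SD than HAS2 also had a large C2 SD, as the plot of SDs shows.

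**Figure D3:**
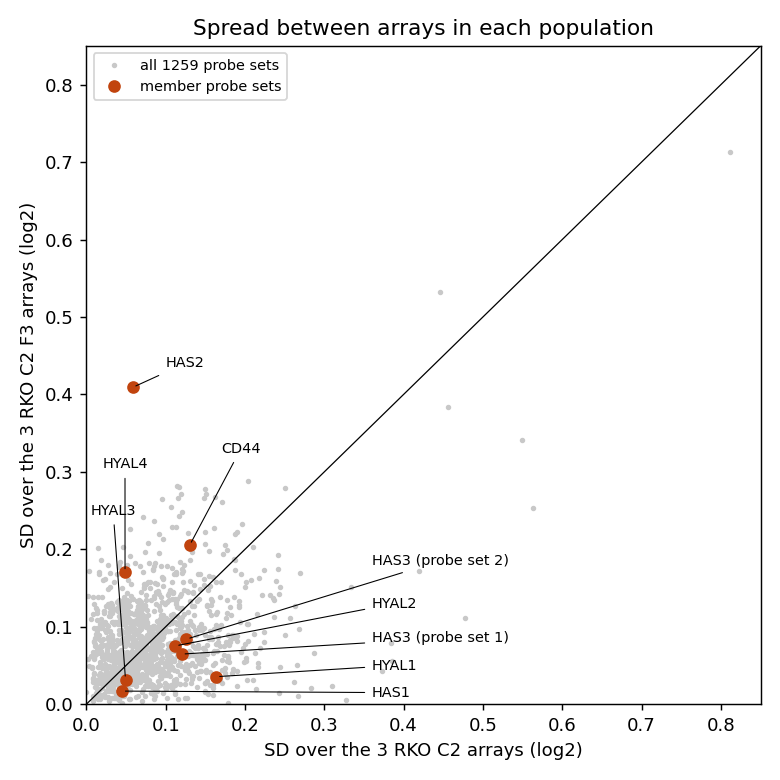
SD over the 3 F3 arrays (vertical) against SD over the 3 C2 arrays (horizontal), log2 units, for all 1259 probe sets (grey) and the 9 member probe sets (red, named). The diagonal marks equal spread; HAS2 lies far above it with an F3 SD of 0.41 and a C2 SD of 0.06.

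HAS1 encodes a synthase that is usually the least active of the 3. Its log2 expression was 5.82, 5.83 and 5.80 on F3 arrays 1, 2 and 3, against 5.78, 5.75 and 5.69 on the C2 arrays. The F3 arrays were all above the C2 arrays, by as little as 0.019. HAS1 and HAS2 were the 2 of 9 members without overlap of the arrays and with F3 higher, where 3.81% of all probe sets had this pattern. It follows from this pattern that both were higher in F3 in 3 of 3 pairs of same-numbered arrays, as were 12.1% of all probe sets. The HAS1 change was 0.076 (SE 0.051, 95% interval -0.040 to 0.19), with a limma adjusted p of 0.97. Leaving out single arrays gave 0.051 to 0.094.

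HAS3, which is known for shorter chains, was read by 2 probe sets that differed in sign. The first, made for the transcript of accession NM_005329, had log2 values of 6.86, 6.94 and 6.99 in F3, against 6.89, 7.12 and 6.96 in C2. The second, made for the transcript NM_138612 and of the type whose probes can match several transcripts, had 5.85, 5.73 and 5.90 in F3, against 5.72, 5.83 and 5.58 in C2. The populations overlapped for both. The changes were -0.060 (95% interval -0.23 to 0.10) and 0.12 (-0.059 to 0.29), with limma adjusted p-values of 0.998 and 0.97. They differed by 0.18 (exact two-sided permutation p = 0.20, where 0.10 is the smallest these arrays allow), and over the 6 arrays the 2 probe sets correlated with r = 0.17 (rho = 0.14). Without C2 replicate 2, the highest C2 array for both, the first was at 0.0052 and the second at 0.18, and without C2 replicate 3 the second was at 0.052.

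The changes of the 3 synthases were set against each other within arrays, a comparison made with the values known. The change of HAS2 exceeded that of the first HAS3 probe set by 0.70 (exact permutation p = 0.10, the smallest possible), with no overlap of the populations. It exceeded that of HAS1 by 0.56 and that of the second HAS3 probe set by 0.52 (exact permutation p = 0.20 each), with overlap. A threshold of 0.05 cannot be reached in this test with 6 arrays.

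The 4 hyaluronidases measured had log2 changes between -0.023 and 0.11, none past the threshold in limma, adjusted or not, and the 2 populations overlapped for each. HYAL2, the GPI-anchored enzyme that makes the first cuts in hyaluronan at the cell surface, had log2 values of 8.56, 8.48 and 8.41 on F3 arrays 1, 2 and 3, against 8.49, 8.55 and 8.33 on the C2 arrays. Number 3 was the lowest array in both populations. The change was 0.024 (SE 0.072, 95% interval -0.14 to 0.19), and its sign turned without F3 replicate 1 or without C2 replicate 3. The interval spans a fold between 0.91 and 1.14, and it covers only the spread of these arrays, which may be technical.

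HYAL1, the lysosomal enzyme that works after HYAL2, had log2 values of 3.60, 3.58 and 3.53 in F3, against 3.65, 3.39 and 3.35 in C2. The F3 arrays lay within the range of the C2 arrays, which C2 replicate 1 widened upwards. The change was 0.11 (SE 0.082, 95% interval -0.082 to 0.29, limma adjusted p = 0.97), 0.20 without C2 replicate 1 and 0.047 without C2 replicate 3. The mean of HYAL1 lay under a log2 of 4, as did that of 344 of the 1259 probe sets. Without a detection call, whether it was expressed cannot be told, and the processing shrinks changes at such levels.

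HYAL3, whose own activity is weak or uncertain, had log2 values of 6.16, 6.11 and 6.11 in F3, against 6.09, 6.19 and 6.17 in C2. The populations overlapped, and the change was -0.023 (95% interval -0.14 to 0.10), or -0.051 to -0.0039 with each array omitted once. HYAL4, which in human cells acts on chondroitin sulfate more than on hyaluronan, had 4.83, 5.17 and 5.04 in F3, against 4.98, 5.01 and 4.91 in C2. The F3 arrays lay on both sides of the C2 arrays, the change was 0.048 (95% interval -0.15 to 0.24), and it turned to -0.029 without F3 replicate 2. HYAL1, HYAL2 and HYAL3 are neighbours in the genome by the RefSeq table, and their changes were 0.11, 0.024 and -0.023. The same table places NAA80 over HYAL3, an antisense gene (HAS2-AS1) over HAS2, SPACA6 over HAS1, and TANGO6, DERPC and CHTF8 over HAS3. It also places RNU6-11P and HYAL6P over HYAL4. Whether the probes of these members also bind RNA of the overlapping genes was not tested.

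**Figure D4:**
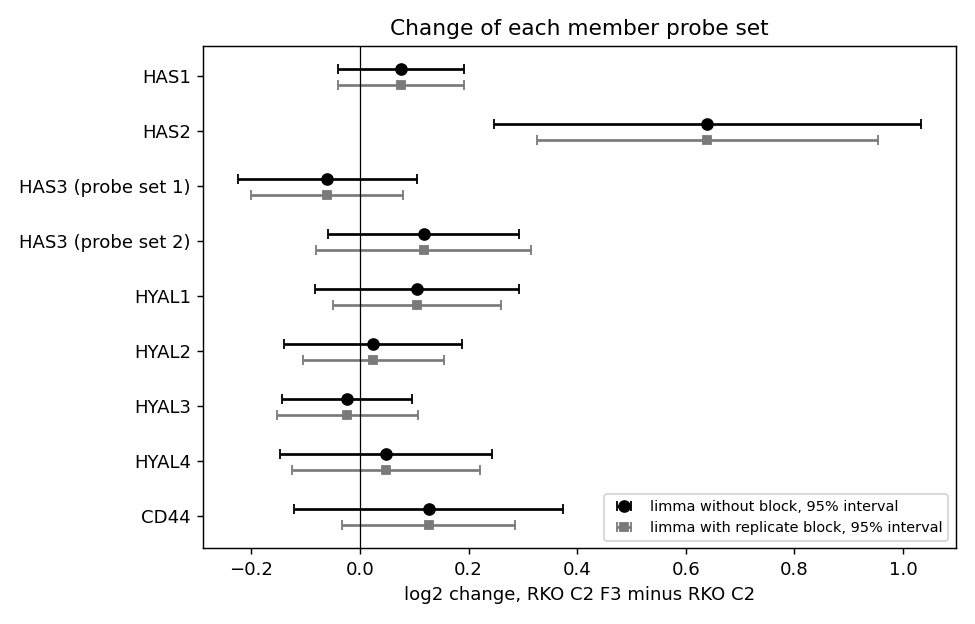
Log2 change, F3 minus C2 (horizontal axis), of the 9 member probe sets with 95% intervals from limma without a block (black circles) and with the replicate block (grey squares). Both intervals of HAS2 exclude 0 (0.25 to 1.03 without the block), and those of the other 8 include it. Limma draws the variances behind these intervals towards that of all probe sets, which narrows both for HAS2.

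CD44 had log2 values of 8.18, 8.24 and 8.56 on F3 arrays 1, 2 and 3, against 8.05, 8.26 and 8.29 on the C2 arrays. F3 replicate 3 was the highest of the 6, the other F3 arrays lay among the C2 arrays, and the order of the numbers was the same in both populations. The means were 8.33 ± 0.21 in F3 and 8.20 ± 0.13 in C2 (SD, n = 3 each). The change was 0.13 (SE 0.11, 95% interval -0.12 to 0.37, limma adjusted p = 0.97). With the replicate block the SE was 0.066, the interval -0.033 to 0.29 and the adjusted p 0.72. Without F3 replicate 3 the change was 0.0098, without C2 replicate 1 it was 0.052, and without F3 replicate 1 it was 0.20. The table held 1 CD44 probe set. CD44 is known for variable exons, and the sources used here do not give the exons that these probes read, so its isoforms cannot be told apart. The RefSeq table also places SNORD164 and the antisense gene CD44-AS1 over CD44, and whether these probes bind their RNA was not tested.

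Genes whose pattern over the 6 arrays was most like that of HAS2 or CD44 were found among 95 named probe sets with an SD of at least 0.15 over the arrays. For HAS2 these were JAG1, a Notch ligand (Pearson r = 0.93, rho = 0.60, n = 6 arrays), FGF9, a growth factor (r = 0.89, rho = 0.77), and HES1, a transcription factor induced by Notch (r = 0.81, rho = 0.77). JAG1 had log2 values of 7.81, 7.42 and 7.94 in F3, against 7.21, 7.47 and 7.45 in C2, so F3 replicate 2 was the lowest F3 array here too and lay among the C2 arrays. HES1 had 6.47, 5.93 and 6.11 in F3, against 6.02, 5.78 and 5.88 in C2, and FGF9 had 4.23, 3.91 and 4.08 in F3, against 3.96, 3.81 and 3.84 in C2. F3 replicate 2 was the lowest F3 array for all 3 genes. Their changes were 0.35, 0.28 and 0.20 for JAG1, HES1 and FGF9, with limma adjusted p-values of 0.84, 0.97 and 0.89. Omitting any 1 array gave 0.24 to 0.50 for JAG1, 0.13 to 0.39 for HES1 and 0.13 to 0.28 for FGF9. For CD44 the genes were HNRNPC, an RNA-binding protein (r = 0.90), JUND, an AP-1 transcription factor (r = 0.89), and ARSB, a lysosomal sulfatase (r = 0.87), with changes of 0.018, 0.22 and -0.0023 (limma adjusted p-values from 0.93 to 0.998). JUND was between 0.13 and 0.29 when any 1 array was omitted. These genes were picked from many for their likeness over 6 arrays that share pairs, so the correlations are descriptions. The low F3 replicate 2 and the positive changes of JAG1, FGF9 and HES1 follow in part from that choice. They add no support to the HAS2 change.

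Hyaluronan synthesis draws on 2 UDP-sugars. Of 12 listed genes that supply them 9 were measured, and 0 passed the limma threshold in either direction. Their median change was -0.063, 3 being positive and 6 negative. UGDH, which makes UDP-glucuronic acid, averaged 7.49 in F3 and 7.43 in C2, a log2 change of 0.063 (95% interval -0.13 to 0.26), and UGP2, which makes UDP-glucose before it, was at 0.066. With any 1 array omitted these were 0.0026 to 0.14 for UGDH and 0.018 to 0.12 for UGP2. UAP1, the last enzyme of UDP-N-acetylglucosamine synthesis, averaged 11.39 in F3 and 11.22 in C2, a change of 0.17 (0.0039 to 0.34, limma adjusted p = 0.90, unadjusted p = 0.046). UAP1 was the 1 gene of this list under an unadjusted p of 0.05, where 5.40% of all probe sets were, and single arrays left out moved it between 0.11 and 0.23. The first enzymes of the hexosamine pathway, GFPT1 and GFPT2, were at -0.063 and -0.065, and GNPNAT1, which acetylates glucosamine phosphate, was at -0.0056. GFPT1 was -0.15 to -0.0017 across these omissions. HK1 and GPI, early enzymes of glycolysis, were at -0.13 and -0.078, and PGM1, which interconverts glucose phosphates on the way to UDP-glucose, was at -0.12. Without C2 replicate 2 HK1 was at -0.045 and PGM1 at -0.071. PGM1 was the 1 gene here whose F3 arrays lay entirely below the C2 arrays, as 6.51% of all probe sets did.

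Among 25 other hyaluronan-binding proteins and receptors 5 were measured, and 0 passed the limma threshold. BCAN (brevican), a hyaluronan-binding proteoglycan of brain, averaged 8.37 in F3 and 8.67 in C2, a log2 change of -0.30 (95% interval -0.43 to -0.17, limma adjusted p = 0.19, unadjusted p = 0.00059), while its other probe set was at 0.088. Its F3 arrays lay entirely below the C2 arrays, as did those of 6.51% of all probe sets. NCAN (neurocan), of the same family, was at 0.12 (-0.010 to 0.26), with F3 arrays entirely above the C2 arrays, as in 3.81% of all probe sets. NCAN averaged 3.67 in F3 and 3.55 in C2, under a log2 of 4 as was HYAL1. ACAN (aggrecan) was at -0.013 and VCAN (versican) at -0.027. LAYN (layilin), a membrane receptor for hyaluronan, was at 0.0027, and its deposited value was the same, 4.26, on the 3 C2 arrays and on F3 replicate 3, so its SD does not measure their spread. Apart from hyaluronidases, 2 of 4 listed breakdown enzymes were measured, with 0 past the threshold. These were GUSB (beta-glucuronidase) at -0.15 (-0.28 to -0.023, limma adjusted p = 0.84, unadjusted p = 0.026), and HEXA, a hexosaminidase subunit gene, at 0.030. GUSB averaged 9.40 in F3 and 9.55 in C2, and its F3 arrays lay entirely below the C2 arrays, the pattern of 6.51% of all probe sets. BCAN and GUSB were among the 5.40% of all probe sets under an unadjusted p of 0.05.

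Of 14 listed partners and ligands of CD44 7 were measured, again with 0 past the limma threshold and a median change of 0.016. The lowest changes belonged to 2 growth factor receptors, FGFR2 and MET, of which MET is known to use CD44 variants as a co-receptor. FGFR2 averaged 5.58 in F3 and 5.88 in C2, a log2 change of -0.30 (95% interval -0.48 to -0.12, limma adjusted p = 0.73), and MET averaged 8.19 in F3 and 8.42 in C2, a change of -0.23 (-0.43 to -0.028, adjusted p = 0.84). Both were under an unadjusted p of 0.05, as were 5.40% of all probe sets. The F3 arrays of FGFR2 lay entirely below the C2 arrays (6.51% of all probe sets), and those of MET overlapped them. Galectin-9 (LGALS9), a lectin that binds CD44, was at 0.082 with F3 arrays entirely above the C2 arrays (3.81% of all probe sets). The invariant chain CD74, which pairs with CD44 in a receptor, was at 0.052, and the proteoglycan serglycin (SRGN) at 0.067 (0.041 to 0.10 with any 1 array omitted). SRGN was dim, averaging 2.92 in F3 and 2.85 in C2. The selectins SELE, which binds CD44 glycoforms, and SELP were at 0.016 and -0.0029, at means between 2.80 and 3.89 in both populations.

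**Figure D5:**
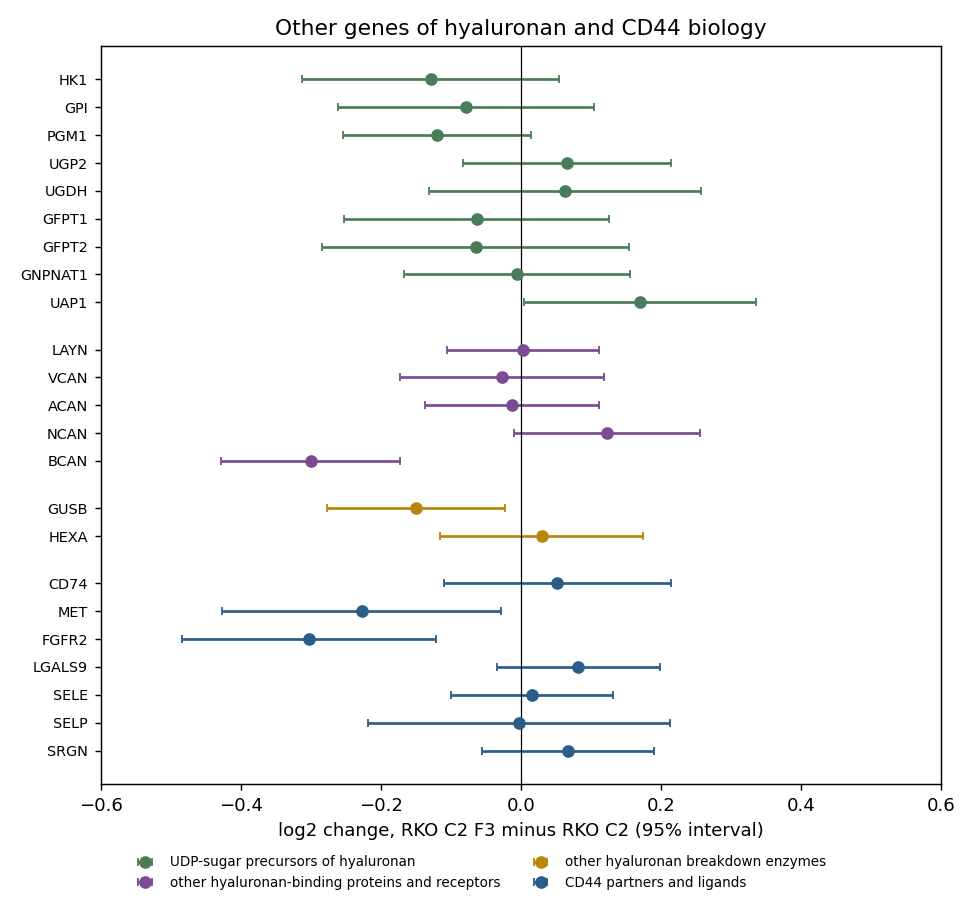
Log2 change, F3 minus C2 (horizontal axis), with 95% limma intervals for 23 genes of hyaluronan and CD44 biology other than the members, by list (colour). BCAN and FGFR2, both at -0.30, lie farthest from 0, and none of the 23 passed the adjusted threshold.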

How the data were processed

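Gene expression was measured in 3 RKO C2 F3 and 3 RKO C2 arrays. Per the labels' protocols, total RNA was extracted with Trizol and biotinylated cRNA was made by the Affymetrix protocol. The deposited values are log2 expression of each probe set on each array, made by RMA per the submitters' processing notes. RMA corrects background, makes the arrays' distributions alike and summarises probes, so that a shift of most genes would be removed and changes of dim probe sets shrink. Not given in the sources used here are its version, the probe set definitions, the genome build and any detection call.

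Probe sets were named by their RefSeq accession, without version, through the RefSeq gene table of GRCh38 (1043 of 1259 named, 927 genes). F3 was compared with C2 in limma 3.58.1 (R 4.3.3; lmFit and eBayes). Its two-sided p-values were adjusted by Benjamini-Hochberg over the whole table, and changes are F3 minus C2. The script was tested on simulated data. For other genes the probe set with the highest mean was used. The genes named were all members, the measured genes of 4 lists, and the 3 genes most like HAS2 and CD44. The members and lists were chosen with earlier results of these data known. A few genes planned for the lists are not reported and not in the counts. At most 0.477% of values were identical between any 2 arrays.

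Replicate numbers are shared between the populations, as is a label suffix. Arrays with the same number deviated together from the means of their populations (r = 0.52, 0.18 and 0.26 for numbers 1, 2 and 3), and the numbers were treated as pairs on this basis. Arrays of different numbers had r from -0.38 to 0.15, the highest being F3 replicate 3 with C2 replicate 2. The basis for pairing is thus weakest for number 2. Values are from the fit without a block unless stated. Alternatives were array weights, the replicate block, quantile normalization again, median centring, a filter on mean log2 under 4, robust eBayes with an intensity trend, each array or both of number 2 left out, an adjusted p under 0.10, an ordinary two-sample test, averaging the probe sets of HAS3 and, chosen after seeing the data, sign flips of HAS2 within the pairs.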

Additional observations from a re-analysis of the deposited data

How the results depend on the processing

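The number of member probe sets past the threshold was 0 in limma with all arrays, with 1 at an unadjusted p under 0.05, and 0 to 1 with single arrays left out. It was 1 without both arrays of number 2, HAS2 in each case. Over all probe sets 1 was called, 0 to 2 with single arrays left out (0 without F3 replicate 1, C2 replicate 2 or C2 replicate 3), 2 with the replicate block, 2 at an adjusted p under 0.10, and 0 in an ordinary two-sample test, where 67 had an unadjusted p under 0.05. The replicate block changed no call among the members. HAS2 kept its sign in all alternatives, between 0.51 and 0.88. Its limma adjusted p ran from 0.0038 to 0.89 over the 14 settings plotted, and in the ordinary two-sample test its unadjusted p was not under 0.05. Of 136 changes of members recomputed under an alternative, 9 turned in sign, 2 passed the threshold and 125 did neither; of 429 of other named genes, 33 turned and 396 did not. With all arrays, the changes that turned ran from -0.078 (GPI) to 0.052 (CD74), beside a median absolute change of 0.047 over all probe sets. The cause was not tested. With repeated quantile normalization the first HAS3 probe set was at 0.0057, HYAL4 at -0.00064, GNPNAT1 at 0.018 and ARSB at 0.0036, and with the mean of its probe sets HAS3 was at 0.028. With median centring GNPNAT1 was at 0.0098, ACAN at 0.0022, SELP at 0.012 and ARSB at 0.013, and with array weights GNPNAT1 was at 0.0065. Without both arrays of number 2 HYAL3 was at 0.0047, HYAL4 at -0.0080, GFPT2 at 0.0055, GNPNAT1 at 0.019, LAYN at -0.0059, CD74 at -0.043, SELE at -0.015 and ARSB at 0.076. When arrays were left out singly, the range was -0.11 to 0.0052 for the first HAS3 probe set, -0.038 to 0.070 for HYAL2, -0.029 to 0.14 for HYAL4, -0.13 to 0.011 for GPI, -0.16 to 0.038 for GFPT2, -0.069 to 0.056 for GNPNAT1, -0.0059 to 0.0098 for LAYN, -0.068 to 0.016 for VCAN, -0.040 to 0.010 for ACAN, -0.0078 to 0.078 for HEXA, -0.013 to 0.093 for CD74, -0.0091 to 0.029 for SELE, -0.096 to 0.089 for SELP, -0.090 to 0.11 for HNRNPC and -0.16 to 0.079 for ARSB. With 3 arrays a population and no detection call, differences in dim genes such as HYAL1 are the least certain.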
